A study of Homo sapiens with 6 samples.

Results

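The 10 genes described here encode the MTOR kinase, the other subunits of the complexes it forms and the regulators directly upstream of them. They are MTOR, MLST8 and DEPTOR, which serve both complexes, RPTOR and AKT1S1 of complex 1, RICTOR and MAPKAP1 of complex 2, and RHEB, TSC1 and TSC2, which control complex 1 from upstream. The list was written around MTOR, which was chosen by its lower level after silencing in this same comparison, and the other 9 were added as its known partners. All 10 were found by symbol among the 58735 genes of the table, and all 10 were among the 13150 genes with a mean of at least 1 FPKM (read pairs scaled for gene length and library size) over the 6 libraries. RNA was sequenced from PC9-BrM3, a human lung adenocarcinoma line selected for brain metastasis by repeated intracardiac injection of PC9 cells into immunodeficient mice and recovery from the brain. The silenced group (BrM3-shAKR1B10, 3 libraries) carried an shRNA against AKR1B10, an aldo-keto reductase, and the control group (BrM3-shNC, 3 libraries) a negative control shRNA. The label of the control group gives its genotype as WT, but both groups carried the lentiviral LV2 vector, and both were kept in routine culture in RPMI1640 with serum, with no drug. Nothing in the labels says that libraries of a group came from separate cultures, so p-values measure only the spread between these libraries, which may be technical, and they rest on 1 line and, per the figure legends of the study, 1 shRNA.

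MTOR is a large serine/threonine kinase that couples growth to nutrients and growth factors. In complex 1, RPTOR brings substrates such as the S6 kinases and the 4E-BP proteins to the kinase, which raises protein and lipid synthesis and holds back autophagy. In complex 2, RICTOR and MAPKAP1 direct the kinase to AKT, SGK and protein kinase C. The GTPase RHEB activates complex 1 at the lysosome, and the TSC1 and TSC2 proteins switch RHEB off. Much of this control acts on proteins and their phosphorylation, which were not measured here, and the values below are of RNA only.

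To show the DNA beside the RNA values, the 250 bases upstream of the RefSeq start are printed for the kinase and for the scaffold of each complex. The capitals mark every match to CCAAT, or to ATTGG on the other strand. MTOR was read from chr1:11262552-11262801 on the minus strand, RPTOR from chr17:80544588-80544837 on the plus strand and RICTOR from chr5:39074400-39074649 on the minus strand (GRCh38.p14, RefSeq), and each is written 5′ to 3′ towards its gene.
MTOR: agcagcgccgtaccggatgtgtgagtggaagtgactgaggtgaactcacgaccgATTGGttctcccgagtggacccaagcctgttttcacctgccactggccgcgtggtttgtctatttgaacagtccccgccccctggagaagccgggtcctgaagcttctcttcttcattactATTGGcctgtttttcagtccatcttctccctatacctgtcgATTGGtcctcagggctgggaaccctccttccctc
RPTOR: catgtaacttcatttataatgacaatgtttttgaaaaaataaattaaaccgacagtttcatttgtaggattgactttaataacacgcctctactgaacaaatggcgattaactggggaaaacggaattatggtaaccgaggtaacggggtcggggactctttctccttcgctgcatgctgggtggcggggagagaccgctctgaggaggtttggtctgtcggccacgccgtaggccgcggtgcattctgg
RICTOR: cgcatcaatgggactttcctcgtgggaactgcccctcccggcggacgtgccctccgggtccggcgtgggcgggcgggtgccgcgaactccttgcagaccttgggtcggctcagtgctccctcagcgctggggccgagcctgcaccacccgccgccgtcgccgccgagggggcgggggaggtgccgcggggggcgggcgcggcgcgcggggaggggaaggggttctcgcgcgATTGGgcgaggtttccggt
The CCAAT letters were found 3 times upstream of MTOR, with the first base of the matches 196, 75 and 34 bases before the start. RICTOR had 1 match, 19 bases before its start, and RPTOR had none. Among the 35116 RefSeq promoters of the same length, 32.0% held at least 1 match, 9.53% at least 2 and 2.93% at least 3. The GC box letters GGGCGG, on either strand and with overlapping matches counted, occurred once upstream of MTOR, 4 times upstream of RICTOR and not upstream of RPTOR, against 42.6% of all promoters with at least 1. The TATA letters TATAAA, which read TTTATA on the other strand, were found in that second form 238 bases before the RPTOR start and in neither of the other windows (10.7% of all promoters). None of the 3 windows held the E-box letters CACGTG, which 6.34% of promoters held, and the ETS letters CCGGAA, on either strand, were found in RICTOR alone of the 3, 7 bases before the start (14.5% of promoters). The windows also differed in base composition, with a GC content of 55.6% for MTOR, 47.2% for RPTOR and 76.0% for RICTOR, beside a median of 58.0% over all promoters. Of the other members with an entry, RHEB had 2 CCAAT matches, and MAPKAP1, TSC1 and TSC2 had none, while MLST8, AKT1S1 and DEPTOR had no entry. These are matches of letters, chosen for display after the RNA values were seen, and no binding was measured.

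Each library had 16964504 to 18709028 reads on genes, which sets the counting error of each level, and for a gene 1000 bases long 3 reads were worth 0.1635 to 0.1774 FPKM. AKR1B10 was at 108.3, 107.2 and 110.2 FPKM in the silenced libraries and at 798.7, 775.0 and 772.0 FPKM in the control libraries, or 13.9% of control, the direction that the labels give. Keratins 7, 8, 18 and 19 stood at 459.3 to 974.2 FPKM, whereas the lung lineage markers NKX2-1, NAPSA, SFTPB and SFTPC were all below 1 FPKM. Of the markers of other cells, PTPRC, PECAM1 and GFAP were below 1 FPKM in every library, and the fibroblast collagen COL1A1 was at 1.22 FPKM in silenced and 1.98 FPKM in control cells.

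Across the table, 980 of 13150 genes (7.45%) fell by more than 0.5 log2 units at an adjusted p under 0.05 (limma with Benjamini-Hochberg adjustment), and 766 (5.83%) rose by more than 0.5. Under TPM scaling the balance turned, with 873 genes lower and 902 higher. By the same rule 1 of the 10 genes, MTOR, was lower and none was higher. At an adjusted p under 0.05 and any size of difference, MTOR, MAPKAP1 and RHEB were lower and DEPTOR was higher, beside 23.1% and 19.4% of all genes. The groups of 3 did not overlap for the same 3 lower genes and for DEPTOR and RICTOR on the higher side, whereas 29.2% of all genes were lower and 25.5% higher without overlap. Since the comparison that chose MTOR is also the one counted here, these counts describe the 10 genes and test nothing. The median log2 difference of the 10 genes was 0.04, against -0.01 over all genes tested. Apart from MTOR, the differences of the members lay between -0.27 for RHEB and 0.38 for DEPTOR on the log2 scale.

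MTOR (ENSG00000198793) occupies chromosome 1, 11106535 to 11262507, minus strand (GRCh38), and its coding transcript ENST00000361445 has 58 exons. In BrM3-shNC its level was 7.78, 8.18 and 8.56 FPKM. In BrM3-shAKR1B10 its level was 3.42, 3.55 and 3.63 FPKM. The groups were far apart, since the highest silenced library was below the lowest control library by more than the full spread of either group. The means were 3.53 ± 0.104 and 8.17 ± 0.388 FPKM (SD, n = 3 each), so that silenced cells held 43.2% of the control level. On the log2 scale the difference was -1.19 (SE 0.0529), which placed MTOR 116th of 13150 genes counted from the lowest. These values rest on 733 to 1893 reads per library, and in bulk RNA a smaller number of cells expressing MTOR and less MTOR RNA per cell cannot be told apart. Left out 1 at a time, no library moved the level outside 42.2% to 44.3% of control.

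**Figure D1:**
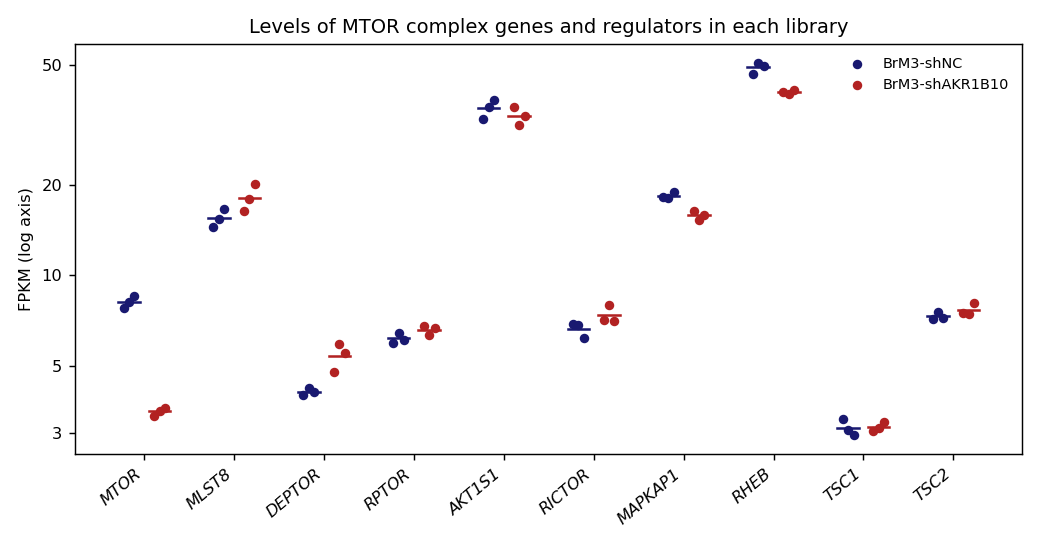
Level of each of the 10 genes in FPKM (log axis) in each of the 6 libraries, with a bar at the group mean. The 3 silenced libraries of MTOR lie between 3.42 and 3.63 FPKM and the 3 control libraries between 7.78 and 8.56 FPKM, whereas the groups of the other genes lie close together or overlap.

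The other subunits shared by both complexes were not lower. MLST8, the WD40 protein that binds and stabilises the kinase domain, was at 14.5, 15.4 and 16.6 FPKM in control and at 16.4, 17.9 and 20.1 FPKM in silenced libraries. These ranges overlapped, and the log2 difference was 0.22 (SE 0.0840). BRICD5 on the other strand, which shares 164 bases of exon with MLST8, was at 0.15 (adjusted p = 0.327). DEPTOR, which binds the kinase and inhibits it, was at 3.99, 4.24 and 4.10 FPKM in control and at 4.77, 5.94 and 5.51 FPKM in silenced libraries. All silenced values of DEPTOR were above all control values, at 131.5% of the control mean and a log2 difference of 0.38 (SE 0.0841). DEPTOR had the fewest reads of the 10 genes, 188 to 281 per library, with a counting error of up to 7.29% in a single library.

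The ratio of MTOR to MLST8 followed from these levels. It was 0.536, 0.531 and 0.515 in the control libraries and 0.209, 0.199 and 0.181 in the silenced libraries, with means of 0.528 ± 0.0114 and 0.196 ± 0.0142 (SD, n = 3). Control libraries thus differed from one another by far less than from the silenced ones. Both levels in this ratio are per base of all annotated exons, so the ratio is no count of proteins.

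Complex 1 was represented by its scaffold and its inhibitor. RPTOR, the scaffold that recruits substrates (chromosome 17, 80544819 to 80966371, plus strand), was at 5.96, 6.45 and 6.11 FPKM in control and at 6.80, 6.33 and 6.67 FPKM in silenced libraries. The groups overlapped, with a log2 difference of 0.09 (SE 0.0507). AKT1S1 encodes PRAS40, which blocks substrate binding until AKT phosphorylates it, and was at 33.2, 36.3 and 38.2 FPKM in control and 36.2, 31.7 and 33.8 FPKM in silenced libraries. The AKT1S1 groups also overlapped, with a log2 difference of -0.08 (SE 0.0677) that turned to 0.01 under quantile scaling, so it has no settled sign. AKT1S1 shares 392 bases of exon with TBC1D17 on the other strand, which was higher in silenced cells (log2 0.42, adjusted p = 0.00156). Whether reads were counted by strand is not stated, and the part of shared reads in the AKT1S1 level was not tested.

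Complex 2 had its subunits on opposite sides of 0. RICTOR, its scaffold (chromosome 5, 38937919 to 39074408, minus strand), was at 6.92, 6.82 and 6.21 FPKM in control and at 7.10, 7.99 and 7.04 FPKM in silenced libraries. Every silenced value of RICTOR was above every control value, yet the gap between the nearest libraries was small, and the log2 difference was 0.15 (SE 0.0687). OSMR, a cytokine receptor gene on the other strand that shares 229 bases of exon with RICTOR, was at 0.01 (adjusted p = 0.964). MAPKAP1 encodes SIN1, which presents AKT and related substrates to the kinase, and was at 18.3, 18.1 and 18.9 FPKM in control and 16.4, 15.3 and 15.9 FPKM in silenced libraries. Its silenced values were all below its control values, by 0.21 on the log2 scale (log2 difference -0.21, SE 0.0395). The ratio of RICTOR to RPTOR, the scaffolds of the complexes, was 1.08 ± 0.0746 in control and 1.12 ± 0.123 in silenced libraries (SD, n = 3). These ratios overlapped, between 1.02 and 1.16 in control and between 1.04 and 1.26 in silenced libraries.

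Upstream, RHEB was lower in silenced cells and the TSC genes were level. RHEB was at 46.9, 51.0 and 49.8 FPKM in control and at 40.6, 40.2 and 41.3 FPKM in silenced libraries, with a log2 difference of -0.27 (SE 0.0388) and no overlap. Processed copies of RHEB took reads too, mainly RHEBP2, which reached 500 reads or 18.2% of the RHEB reads of its library. Reads on RHEB and its 3 annotated pseudogenes together were 202.8 ± 8.59 per 1000000 reads in control and 168.1 ± 3.02 per 1000000 reads in silenced libraries (SD, n = 3), or 82.9% of control. The sum therefore stood at the same log2 ratio, -0.27, as RHEB alone, however reads were divided between the copies.

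TSC1, which stabilises TSC2, was at 3.34, 3.07 and 2.95 FPKM in control and at 3.03, 3.11 and 3.26 FPKM in silenced libraries. With a log2 difference of 0.01 (SE 0.0697), the TSC1 groups overlapped, and the sign turned in some alternatives, between -0.03 and 0.05. TSC2, the GTPase-activating partner that turns RHEB off, was at 7.18, 7.56 and 7.23 FPKM in control and at 7.53, 7.45 and 8.07 FPKM in silenced libraries. Here too the groups overlapped, with a log2 difference of 0.07 (SE 0.0479). The 95% intervals of the differences, -0.16 to 0.17 for TSC1 and -0.05 to 0.18 for TSC2, lie inside the 0.5 used for calls. Per library, TSC1 stood at 0.427 ± 0.0332 of TSC2 in control and at 0.408 ± 0.00788 in silenced cells (SD, n = 3), which overlapped. TSC2 shares 778 bases of exon with PKD1 (log2 0.06) and 402 bases with NTHL1 (log2 -0.38, adjusted p = 0.0530), both on the other strand.

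**Figure D2:**
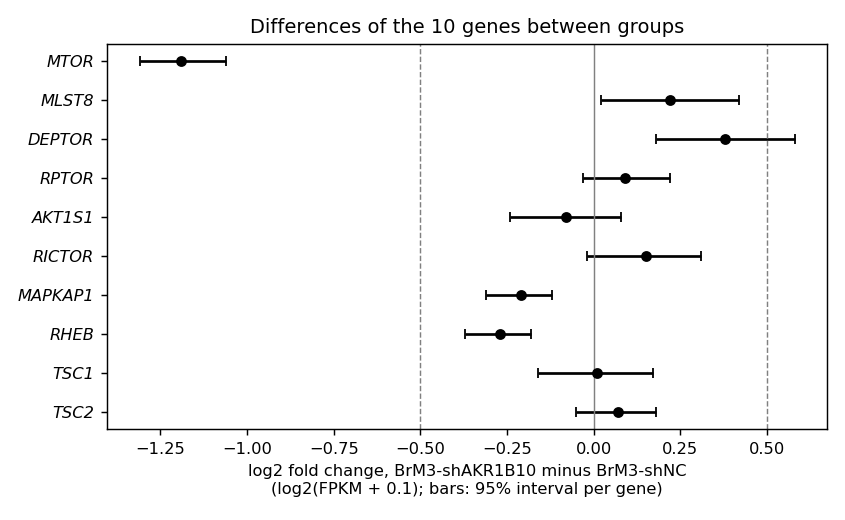
Difference of each of the 10 genes between groups on the log2(FPKM + 0.1) scale, silenced minus control (points), with its 95% interval from the fit over all genes (bars) and dashed lines at the 0.5 used for calls. MTOR at -1.19 is the only point beyond a dashed line, and the other points lie between -0.27 for RHEB and 0.38 for DEPTOR.

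Ordered by level per base of annotated exon, control libraries gave RHEB, AKT1S1, MAPKAP1, MLST8, MTOR, TSC2, RICTOR, RPTOR, DEPTOR and TSC1, from 49.2 FPKM down to 3.12 FPKM. In silenced libraries RHEB and AKT1S1 still led and TSC1 came last, but MTOR moved from the fifth place to the ninth, below DEPTOR. Neighbours whose libraries overlapped were RICTOR and RPTOR in control cells, and MLST8 with MAPKAP1 and TSC2 with RICTOR in silenced cells. The length behind an FPKM value is that of all annotated exons together, 1.02 times the coding transcript for DEPTOR and 3.18 times for TSC2. Per base of the coding transcript alone, MTOR was at 11.4 FPKM in control and 4.94 FPKM in silenced cells, below DEPTOR at 5.52 FPKM and TSC1 at 6.40 FPKM in the latter. On that scale RPTOR was at 9.93 and 10.6 FPKM, RICTOR at 9.44 and 10.5 FPKM and TSC2 at 23.3 and 24.5 FPKM, control first. The order between genes therefore depends on the length used, while differences between groups do not.

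Around the 10 genes, 122 genes of 6 lists (partners and assembly factors, related kinases, amino acid sensing, growth factor and energy inputs, substrates and effectors, and targets of ATF4 and SREBP) were read for the same comparison. Of these, 17 were below the filter on low values and 105 were tested. By the rule above 2 fell and 6 rose, beside 7.45% and 5.83% of all genes. The 6 include CHAC1, which passed the filter only through the silenced group. The share that rose was near that of all genes and the share that fell below it. The median log2 difference of the 105 genes was 0.03, beside -0.01 over all genes. Partners and assembly factors had no call among 9 tested genes and a median of -0.08, with 2 lower and 0 higher at an adjusted p under 0.05 and any size (23.1% and 19.4% of all genes). Among them RUVBL1 and RUVBL2, ATPases of the assembly machinery for MTOR and related kinases, were lower by less than the threshold (log2 -0.31, adjusted p = 5.0e-04, and log2 -0.20, adjusted p = 0.00838). TELO2 and TTI1, which help to fold and assemble these kinases, were at log2 -0.19 (adjusted p = 0.0717) and -0.08 (adjusted p = 0.439). The complex 2 subunit PRR5 was at 0.01, the TSC partner TBC1D7 at -0.05 and the RHEB relative RHEBL1 at 0.10 on the log2 scale, none with an adjusted p under 0.05.

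PRR5L, a relative of PRR5 that also binds complex 2, was too low for the main fit. It was at 1.05, 0.912 and 0.812 FPKM in control and at 0.214, 0.318 and 0.162 FPKM in silenced libraries, from 98 to 128 and from 19 to 38 reads. The groups did not overlap, and silenced cells held 25.0% of the control level. In the fit with no filter on low values its log2 difference was -1.65 (SE 0.265, adjusted p = 0.00909).

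The PIKK family, to which MTOR belongs, had no call among its 5 other members (7.45% lower and 5.83% higher over all genes), with log2 differences between -0.21 and 0.31. At an adjusted p under 0.05 and any size 2 of the 5 were lower and 1 higher, beside 23.1% and 19.4% of all genes. PRKDC, the catalytic subunit of the DNA-dependent kinase, was at -0.21 (adjusted p = 0.00182), and TRRAP, the pseudokinase scaffold of histone acetyltransferases, was at -0.19 (adjusted p = 0.0206). ATM, a DNA break kinase, was at 0.31 (adjusted p = 0.0224), while ATR, the replication stress kinase, and SMG1, the kinase of nonsense-mediated decay, were at 0.10 and 0.06 with adjusted p = 0.238 and 0.330.

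Among genes of amino acid sensing, 21 of 26 tested genes lay above 0, beside 6366 of 13150 over all genes, and the median was 0.07. The 1 call, on the higher side, was no more than the 5.83% of all genes would give, and at an adjusted p under 0.05 and any size 6 were higher and 1 lower (19.4% and 23.1% of all genes). SESN1, a sestrin that restrains complex 1 when leucine is scarce, rose from 3.61, 2.89 and 3.35 FPKM in control to 4.94, 5.19 and 4.91 FPKM in silenced libraries. These did not overlap (log2 0.60, SE 0.0863, adjusted p = 0.00197), although with a pseudocount of 1 the difference was 0.49 and no longer a call. Its paralog SESN2, the GATOR1 subunit NPRL2 and LAMTOR2 of the lysosomal anchor were higher by less than the threshold. Their log2 differences were 0.34 (adjusted p = 0.00404), 0.40 (adjusted p = 0.00106) and 0.33 (adjusted p = 0.0322), in that order.

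Growth factor and energy inputs had no call among 23 tested genes and a median of 0.04, with 7 lower and 4 higher at an adjusted p under 0.05, near the 23.1% and 19.4% of all genes. AKT1, a kinase that phosphorylates TSC2 and PRAS40, was at 7.32 ± 0.556 FPKM in control and 5.61 ± 0.397 FPKM in silenced cells (SD, n = 3; limma adjusted p = 0.00794), a log2 difference of -0.38. Its paralog AKT2 was at -0.13 (adjusted p = 0.0531). PIK3CA, a catalytic subunit of PI3K, was lower by 0.35 (log2 -0.35, adjusted p = 0.00380), and IRS2, an insulin receptor adaptor, was higher (log2 0.31, adjusted p = 0.00119). DDIT4, which encodes the complex 1 inhibitor REDD1, was at 0.26 (adjusted p = 0.0156).

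Substrates and effectors gave 2 lower and 1 higher call among 22 tested genes, near the 7.45% and 5.83% of all genes, with a median of -0.07. EIF4EBP2, a translation repressor that complex 1 inactivates, was at 38.5, 37.8 and 38.4 FPKM in control and fell to 18.1, 18.2 and 18.8 FPKM in silenced libraries. The groups were separated by many times their spread, with a log2 difference of -1.05 (SE 0.0306, adjusted p = 8.7e-06) and 2321 to 5129 reads per library. Its paralog EIF4EBP1 was at 48.7 ± 6.01 and 42.2 ± 1.94 FPKM in control and silenced cells (SD, n = 3; limma adjusted p = 0.125), which overlapped. Both genes were thus at or below control, but only for EIF4EBP2 did the difference exceed the spread between libraries.

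ATG13, the autophagy initiation factor that complex 1 phosphorylates, fell from 17.7, 17.3 and 16.9 FPKM to 12.1, 12.4 and 11.3 FPKM (log2 -0.54, SE 0.0458, adjusted p = 2.3e-04). This call sat at the edge of the threshold and was lost at -0.50 without the third silenced library and at -0.49 under quantile scaling. TFEB, a transcription factor of lysosomal genes that complex 1 keeps in the cytoplasm, rose from 1.39, 1.18 and 1.36 FPKM to 2.25, 1.92 and 1.99 FPKM (log2 0.61, SE 0.117, adjusted p = 0.00654). TFEB was low, at 113 to 225 reads, and with a pseudocount of 1 the difference was 0.40 and no longer a call. The S6 kinase genes RPS6KB1 and RPS6KB2 were at -0.16 (adjusted p = 0.0320) and -0.09 (adjusted p = 0.352), and ULK1, the partner kinase of ATG13, at -0.13 (adjusted p = 0.109). LPIN1, a lipin phosphatase that complex 1 phosphorylates, was higher by 0.45 (adjusted p = 4.3e-04), and CAD, the pyrimidine synthesis enzyme downstream of S6 kinase, was at -0.26 (adjusted p = 0.00327), both short of the threshold.

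**Figure D3:**
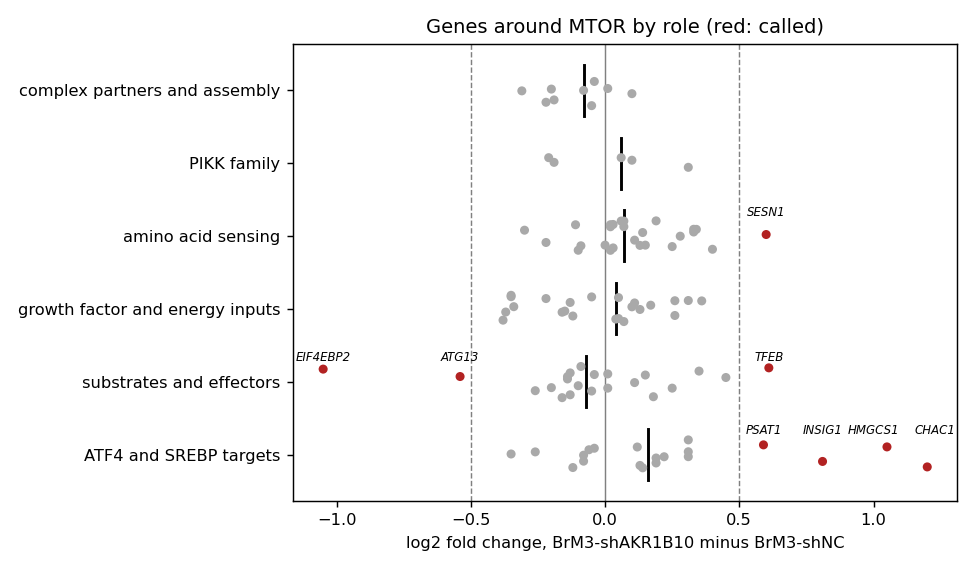
Difference of each tested gene of the 6 lists between groups on the log2(FPKM + 0.1) scale, silenced minus control, 1 row per list, with a black bar at the median of the list, dashed lines at 0.5 in either direction and called genes in red. The medians lie between -0.08 and 0.16, and 8 of 105 genes are called.

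The last list held genes whose transcription is raised through ATF4 and the SREBP factors, which complex 1 is known to promote. Of 20 tested genes, 4 rose and none fell by the rule, beside 5.83% and 7.45% of all genes, and the median was 0.16. One of the 4, CHAC1, passed the filter on low values only through the silenced group, where it was high, and without it 3 of 19 rose. At an adjusted p under 0.05 and any size, 11 were higher, CHAC1 among them, and 2 lower, beside 19.4% and 23.1% of all genes. Among the ATF4 targets, PSAT1 of serine synthesis rose from 52.4, 51.1 and 52.7 FPKM to 77.1, 80.3 and 78.7 FPKM (log2 0.59, SE 0.0303, adjusted p = 3.0e-05). PSPH, the next enzyme of serine synthesis, was on the other side, at 55.5 ± 0.752 FPKM in control and 46.4 ± 3.64 FPKM in silenced cells (SD, n = 3; log2 -0.26, limma adjusted p = 0.0107), and SHMT2, which converts serine to glycine, was at -0.12 (adjusted p = 0.0790). CHAC1, which degrades glutathione, was at 0.927, 0.488 and 0.879 FPKM in control and at 1.95, 1.72 and 1.84 FPKM in silenced libraries, a log2 difference of 1.20 (SE 0.241) on only 17 to 71 reads per library. With a pseudocount of 1 this difference was 0.69, and it was 0.95 without the second control library. The groups of both genes were apart, although CHAC1 varied more in control cells. ATF4 itself was at 0.14 on the log2 scale (adjusted p = 0.00957), and its target ASNS, asparagine synthetase, was below the filter at 0.257, 0.372 and 0.172 FPKM in control and 0.622, 0.423 and 0.608 FPKM in silenced libraries (adjusted p = 0.141 with no filter).

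Of the sterol genes, HMGCS1, an early enzyme of cholesterol synthesis, rose from 17.7, 16.8 and 17.3 FPKM to 35.1, 36.5 and 36.3 FPKM (log2 1.05, SE 0.0344, adjusted p = 1.0e-05). INSIG1, which retains the SREBP escort protein in the endoplasmic reticulum, rose from 22.1, 22.4 and 22.6 FPKM to 40.5, 37.2 and 40.1 FPKM (log2 0.81, SE 0.0413, adjusted p = 3.1e-05). The control libraries of INSIG1 and HMGCS1 differed little, so both differences were many times the spread. SREBF2, the factor of sterol genes, was at 0.22 (adjusted p = 0.00143), whereas SREBF1, the factor of fatty acid genes, was at -0.35 (adjusted p = 3.5e-04). The fatty acid synthesis genes FASN and SCD were at -0.06 (adjusted p = 0.337) and -0.04 (adjusted p = 0.419), and the latter was at 0.08 under quantile scaling.

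**Figure D4:**
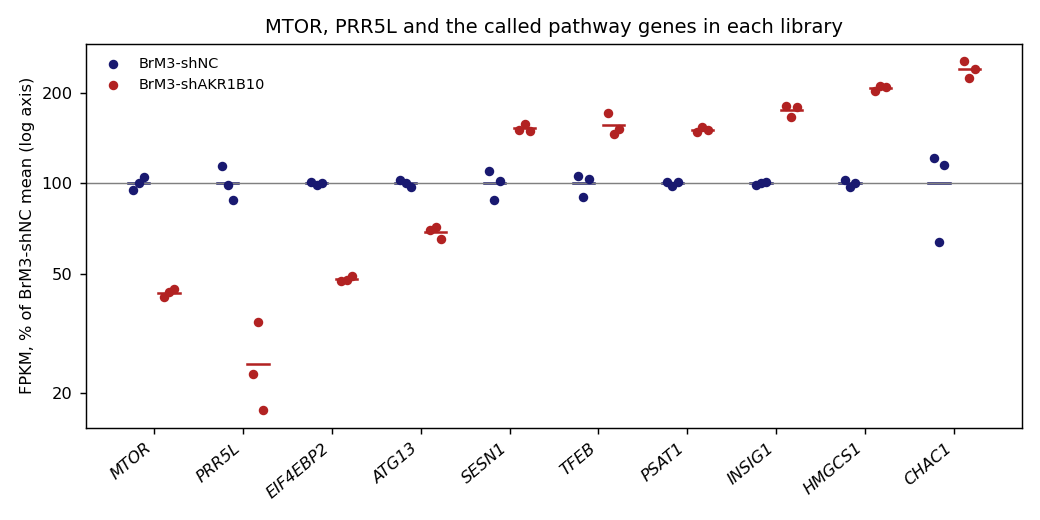
Level of MTOR, PRR5L and the 8 called genes of the lists in each library, as a percentage of the control mean of the same gene (log axis), with a bar at each group mean. MTOR and EIF4EBP2 lie near one another in silenced cells, MTOR at 43.2% of control, while the HMGCS1 and INSIG1 libraries lie above all their control libraries.

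To see whether other genes of the MTOR region differed too, the nearest tested genes on either side were read. On the 3′ side EXOSC10, a nuclear exosome nuclease whose gene lies 6654 bases from MTOR, was at 10.7 ± 0.906 FPKM in control and 8.54 ± 0.239 FPKM in silenced cells (SD, n = 3; log2 -0.32, limma adjusted p = 0.00924). EXOSC10 was thus lower, but not by the 0.5 used for a call. Farther out, the spermidine synthase gene SRM and the transcript AL109811.3 were at 0.18 (adjusted p = 0.139) and 0.47 (adjusted p = 0.112). The F-box genes FBXO2 and FBXO44 on the other side were at 0.59 (adjusted p = 0.00122) and 0.19 (adjusted p = 0.0242), and FBXO2 was the 1 call among these neighbours. No gene overlapping MTOR exceeded 2 reads in any library, including MTOR-AS1, which shares 220 bases of its exons.

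**Figure D5:**
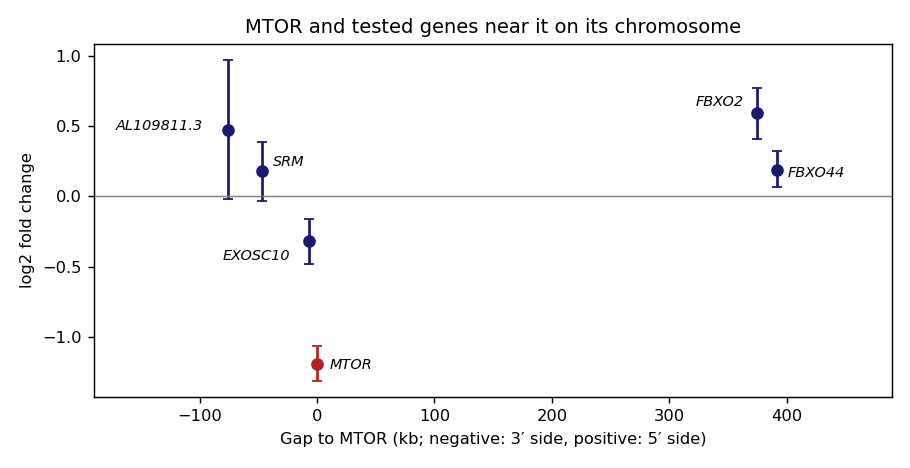
Difference between groups on the log2(FPKM + 0.1) scale (points, with 95% intervals) for MTOR in red and 5 tested genes near it, against their gap to MTOR in kb. EXOSC10 lies at -0.32, above MTOR at -1.19, and the 4 genes farther away lie above 0.

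The genes most like MTOR over the 6 libraries were found by the root mean square difference of log2(FPKM + 0.1) after each gene was centred on its own mean. They were CDC20, an activator of the anaphase-promoting complex, at 0.0329, RAD21, a cohesin subunit, at 0.0339, NCAPH, a condensin subunit, at 0.0367, PLK1, a mitotic kinase, at 0.0381, and MYBL2, a transcription factor, at 0.0388 log2 units. CDC20 was at 103.2, 115.5 and 115.5 FPKM in control and 46.6, 49.5 and 51.5 FPKM in silenced libraries, and RAD21 at 54.2, 53.5 and 55.2 against 23.3, 24.1 and 24.7 FPKM. The silenced level was between 42.2% and 45.4% of control for the 5 genes, beside 43.2% for MTOR. EIF4EBP2 came 30th in this order. Likeness over 6 libraries in 2 groups mostly reflects a similar difference between the groups, and all genes share the same libraries and scaling, so the order is a description only.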

How the data were processed

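RNA of 3 BrM3-shAKR1B10 and 3 BrM3-shNC libraries was enriched for mRNA with poly-T beads and sequenced in pairs, and groups and replicate numbers come from the sample titles. The authors aligned reads with HISAT2 2.0.5, counted them per gene with featureCounts 1.5.0-p3 and deposited FPKM values by gene length, with replicates not pooled. The genome build, the annotation and the use of strand in counting are not given in the sources used here. All 58735 gene identifiers, positions and strands match GENCODE 29 (GRCh38), which was used for exons and coordinates. The DESeq2 testing by the authors was run on counts and was not used here.

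Reads were recovered from FPKM and gene length, and 100% of values were whole within 0.02 reads. The library sizes behind the FPKM values, 16911164 to 18350584, were not the read totals (16964504 to 18709028, median 17399483 in silenced and 18488933 in control libraries), so a scaling between libraries was already applied. Replicates differed by more than counting noise, with a chi-square per gene of 2.45 to 5.42, so no library was a copy of another. The 3-read floor covers counting error alone.

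All genes whose mean FPKM over the 6 libraries reached 1 entered a single fit of log2(FPKM + 0.1) in limma 3.58.1 (R 4.3.3, lmFit, eBayes with trend), with Benjamini-Hochberg adjustment over 13150 genes. A call needed an adjusted p under 0.05 together with a log2 difference beyond 0.5 in either direction. Fold changes on this scale understate those of low genes. On simulated data with 200 genes changed 2-fold, 198 were recovered with 3 false calls, and with none changed 1 call was made. The simulation changed only genes with many reads and gave all genes the same spread beyond counting error. Its recovery therefore does not carry over to genes with few reads or to differences near the threshold.

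The members, the 6 lists, the markers and the tests were chosen with earlier results of these data known. Named by rule were the members, AKR1B10, called list genes, a set of core pathway genes and the PIKK family, 3 neighbours of MTOR on each side, genes sharing bases with a member and the 5 genes most like MTOR. Some genes covered by the rule are not reported here. Other list genes named (RUVBL1, RUVBL2, SESN2, NPRL2, LAMTOR2, AKT1, AKT2, PIK3CA, IRS2, DDIT4, LPIN1, CAD, ATF4, ASNS, PSPH, SHMT2, SREBF1, SREBF2, FASN and SCD) and the promoter motifs were chosen after their values were seen. Alternatives changed the pseudocount (1 or 0.01), the filter (none, or a mean FPKM of 5) and the scaling (TPM or quantile), or used voom on the recovered reads, a replicate block, a threshold of 1 and each library left out. Promoter sequences are from RefSeq (GRCh38.p14), with entries for 7 of 10 members.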

Additional observations from a re-analysis of the deposited data

How the results depend on the processing

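MTOR was the 1 member called lower, and no member was called higher, in all 15 alternatives, and the log2 difference of MTOR stayed between -1.22 and -1.02 in the 14 that refitted it. Of the counts over all genes, those lower became 532 and those higher 290 with a mean FPKM of at least 5, which tests 7355 genes and leaves out DEPTOR and TSC1, and 205 and 168 at a threshold of 1, which calls fewer genes by construction. With a pseudocount of 1, 497 genes were higher, since low genes move less on that scale. TPM scaling gave 873 lower and 902 higher, turning the balance of calls. Without 1 library at a time, 947 to 971 genes were lower and 656 to 759 higher. Pathway genes called lower numbered 1 under quantile scaling and at a threshold of 1, and 1 to 2 with a library left out, because ATG13 fell to the threshold without BrM3-shAKR1B10 replicate 3. Pathway genes called higher numbered 3 with a mean FPKM of at least 5, which leaves out CHAC1, SESN1 and TFEB, and 2 at a threshold of 1, where no neighbour of MTOR was called (0). SESN1 (0.49) and TFEB (0.40) lost the call with a pseudocount of 1. AKT1S1, TSC1, RHEBL1, PRR5, OSMR and SCD, none of them called, had the other sign in at least 1 alternative. The median of all genes moved by at most 0.037 (TPM). Deviations of libraries with the same replicate number correlated at -0.0155, 0.00388 and 0.00383, within the -0.0386 to 0.0363 of all pairs, so the numbers were not taken as pairs. With a replicate block 967 genes were lower and 719 higher, 1633 of the 1746 calls were kept, and no gene named from the lists, the neighbours or the members that was fitted with the block changed its call. Among the members depth limits DEPTOR most (188 to 281 reads), and AL109811.3, RHEBL1, ASNS, CHAC1, PRR5L, BRICD5 and TFEB had libraries with fewer reads still.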
